A study of Mus musculus with 36 samples.

Results

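The immediate early genes *Fos*, *Fosb*, *Junb*, *Egr1*, *Egr2*, *Egr3*, *Arc*, *Nr4a1*, *Npas4* and *Bdnf* were read from RNA-seq counts of the cerebellum and the hippocampus of adult mice lacking *Pogz* in the nervous system. These 10 genes were taken by symbol, all 10 were found among the 24421 genes of each table, and none of them overlapped another listed gene by its coordinates. Each of the 18 mice (C57Bl/6, 8 to 16 weeks old, 9 males and 9 females) gave both tissues. The 6 control mice carried floxed *Pogz* on both chromosomes (Pogzfl/fl) and no Cre, the 6 cKO+/- mice were NesCre/+; Pogzfl/+ and the 6 cKO-/- mice were NesCre/+; Pogzfl/fl, with 3 males and 3 females in each genotype. Cre was driven by the *Nestin* promoter, which is active in neural progenitors, and removed exons 13 to 19 of *Pogz*, a gene for a zinc finger protein of heterochromatin. Since every *Pogz*-deficient mouse carried the transgene and no control did, loss of *Pogz* and presence of Cre cannot be told apart.

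Immediate early genes are transcribed within minutes of a strong synaptic or hormonal stimulus, from promoters held ready by CREB, SRF and related factors, without new protein synthesis. *Fos*, *Fosb*, *Junb*, *Egr1*, *Egr2*, *Egr3*, *Nr4a1* and *Npas4* encode transcription factors, *Arc* encodes a cytoskeleton-associated protein that promotes the removal of AMPA receptors from synapses, and *Bdnf* encodes a neurotrophin. In the hippocampus and the cerebellum their RNA is used as a mark of recent neuronal activity, and at rest it varies from animal to animal.

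The depth was 21421850 to 32544929 gene counts in cerebellar libraries and 17609321 to 45544188 in hippocampal ones. Levels are given as CPM (counts scaled to a common library size with edgeR's TMM factors), and as RPKM (per kilobase of the exons in the table) wherever different genes are compared. *Pogz*, the targeted gene, ran from 89.6 to 130 CPM in the cerebellum of controls, from 66.4 to 81.5 in cKO+/- and from 57.0 to 74.0 in cKO-/- mice, and in the hippocampus from 89.0 to 92.8, from 74.0 to 80.2 and from 58.7 to 67.7, so that in both tissues every library of either mutant genotype lay below every control. For each allele lost its log2 level fell by 0.30 in the cerebellum (adjusted p = 0.000356, edgeR) and by 0.28 in the hippocampus (adjusted p = 1.79e-07, edgeR). Summed over 12 markers of cerebellar neurons, such as *Gabra6* and *Pcp2*, cerebellar libraries held between 11200 and 19739 CPM and hippocampal ones between 611 and 1350. The 12 hippocampal neuron markers gave 963 to 1568 CPM in hippocampal libraries, with 291 to 491 in cerebellar ones. Animals are named by their sample numbers in the labels, which both tissues share. The study left out an RNA sample as an outlier without naming it. In the hippocampal fits here the cKO-/- library of animal Sample_1160 was left out, as in an earlier analysis of these files. The cKO-/- mice therefore number 5 there. The study's own count of hippocampal genes called per allele was reached here without this library, so it is probably the sample left out. Fits leaving out another hippocampal library in its place were not made. With all 18 libraries 246 genes were called per allele in place of 636, and 0 members in either case. Tissue homogenates do not separate fewer active cells from less RNA in each.

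RefSeq starts (GRCm38.p6) were at hand for 7 of the 10 members, with several starts for *Bdnf* and *Egr2*. *Egr1*, *Egr3* and *Arc* have no entry. The 250 bases before the start are printed here for *Fos* and for 5 members that were associated with it across hippocampal libraries, because such windows can hold elements through which activity reaches these genes. Elements farther from the start, CArG boxes among them, were not searched, so a motif missing from a window may lie outside it. Capitals mark the core of the cAMP response element (CRE; TGACG or CGTCA), the EGR site (GCGGGGGCG or GCGTGGGCG and their complements CGCCCCCGC or CGCCCACGC) and the CArG box of SRF.
Fos (chr12:85473640-85473889, plus strand): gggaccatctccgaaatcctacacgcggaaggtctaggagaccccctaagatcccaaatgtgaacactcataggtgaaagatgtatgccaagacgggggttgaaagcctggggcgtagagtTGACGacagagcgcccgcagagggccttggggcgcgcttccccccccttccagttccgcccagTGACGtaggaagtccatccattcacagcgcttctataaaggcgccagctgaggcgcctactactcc
Nr4a1 (chr15:101266596-101266845, plus strand): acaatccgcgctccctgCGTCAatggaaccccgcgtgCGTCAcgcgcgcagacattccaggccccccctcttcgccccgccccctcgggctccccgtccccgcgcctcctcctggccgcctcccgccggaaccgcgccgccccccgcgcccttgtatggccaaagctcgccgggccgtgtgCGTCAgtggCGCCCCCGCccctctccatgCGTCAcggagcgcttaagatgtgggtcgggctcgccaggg
Egr2 (chr10:67537619-67537868, plus strand): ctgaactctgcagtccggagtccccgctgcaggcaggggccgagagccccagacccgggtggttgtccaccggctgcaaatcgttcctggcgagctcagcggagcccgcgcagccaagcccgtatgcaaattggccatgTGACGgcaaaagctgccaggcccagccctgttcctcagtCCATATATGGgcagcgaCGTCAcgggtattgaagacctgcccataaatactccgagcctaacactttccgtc
Npas4 (chr19:4989972-4990221, minus strand): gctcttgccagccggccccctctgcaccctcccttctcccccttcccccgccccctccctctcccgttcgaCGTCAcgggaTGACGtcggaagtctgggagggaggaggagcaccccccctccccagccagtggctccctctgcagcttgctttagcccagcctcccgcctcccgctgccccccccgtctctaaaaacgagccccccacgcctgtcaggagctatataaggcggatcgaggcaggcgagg
Fosb (chr7:19310046-19310295, minus strand): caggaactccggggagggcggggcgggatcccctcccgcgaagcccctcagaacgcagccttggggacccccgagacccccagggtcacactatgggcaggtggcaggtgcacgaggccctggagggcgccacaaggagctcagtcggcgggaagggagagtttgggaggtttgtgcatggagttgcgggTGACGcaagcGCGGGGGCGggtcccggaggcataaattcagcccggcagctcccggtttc
Junb (chr8:84978749-84978998, minus strand): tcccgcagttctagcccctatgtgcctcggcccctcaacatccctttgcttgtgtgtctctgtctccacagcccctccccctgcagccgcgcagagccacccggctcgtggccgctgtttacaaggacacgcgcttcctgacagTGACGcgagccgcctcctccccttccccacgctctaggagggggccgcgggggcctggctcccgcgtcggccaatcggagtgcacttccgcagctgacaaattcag
The CRE core was found in 9 of the 17 windows of these 7 members and in 17.8% of all 32851 windows of the same length. Each member had at least 1 such window, but a member with several windows has more chances of a match. Of the *Bdnf* windows only that from chr2:109692186 held a core. Several windows of *Egr2* overlap and hold the same cores, so the 17 windows are not separate sequences. *Fos* had it at -129 and -66 from the start, *Nr4a1* at 4 places, and *Npas4* as a close pair from -179 to -165. In *Egr2* the CArG box lay at -72 between CRE cores at -111 and -55. A CArG box was found in 1.47% of all windows and an EGR site, present in *Fosb* and *Nr4a1*, in 3.06%. The full CRE (TGACGTCA, in 1.55% of windows) and the AP-1 site (TGACTCA or TGAGTCA, in 4.46%) occurred in none of the members' windows. These are matches of letters on either strand and not measured binding. CRE cores inside a full CRE were counted as cores too.

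In control mice the tissues held the family in different proportions. Per length, *Egr1*, *Fos* and *Nr4a1* led in the cerebellum, with medians of 14.7, 13.8 and 12.5 RPKM and overlapping ranges, followed by *Arc* at 8.98, which overlapped *Fos* and *Nr4a1*, and by *Junb* at 4.997 and *Bdnf* at 4.10, which overlapped each other. *Npas4* was at 1.72, *Fosb* at 0.322, *Egr3* at 0.120 and *Egr2* at 0.0319 RPKM. In the hippocampus *Arc*, *Egr1*, *Egr3*, *Junb* and *Nr4a1* had medians of 46.2, 34.4, 31.0, 29.2 and 27.2 RPKM and ranges that overlapped with one another, while *Bdnf* at 7.11, *Fos* at 4.91, *Npas4* at 3.67, *Fosb* at 3.05 and *Egr2* at 0.434 RPKM were lower. Of these, *Bdnf*, *Fos*, *Npas4* and *Fosb* each overlapped the next in order, and *Egr2* lay below all of them. *Fos* was thus among the leading members in the cerebellum and among the lower ones in the hippocampus.

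**Figure D1:**
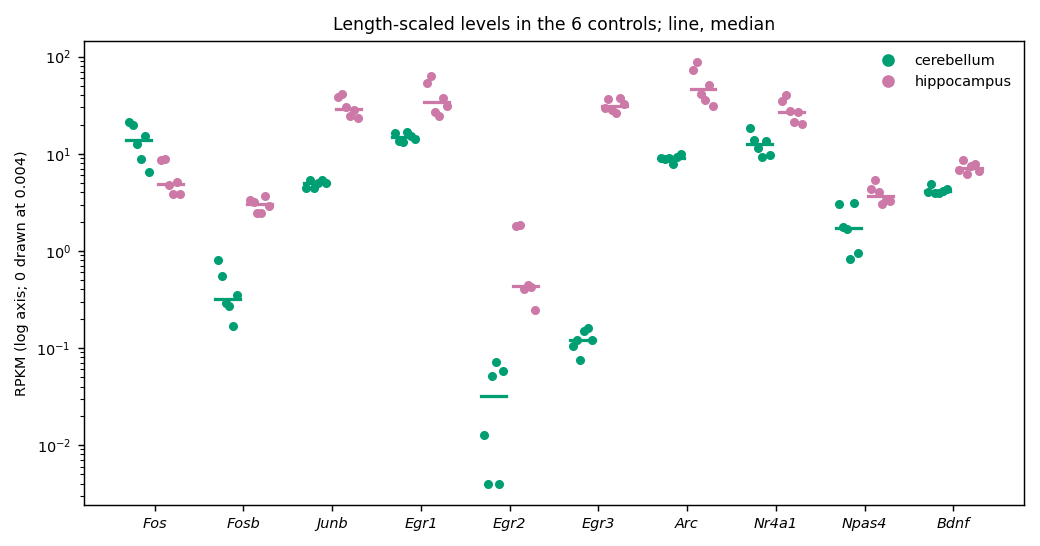
Levels of the 10 genes in the 6 controls of each tissue, in RPKM on a log axis, with a point per animal and a line at the median. Every hippocampal point lies above every cerebellar one except in *Npas4* and *Fos*, whose ranges overlap, and in *Fos* the hippocampal median is the lower one (4.91 against 13.8 RPKM).

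The difference between the tissues was tested in controls over 14224 genes, of which 71.9% passed an FDR of 0.05. This fit took the libraries of an animal as separate, and the calls of the members were the same with the animal as a block. All 9 tested members passed, 8 of them higher in the hippocampus, against 5004 genes higher and 5223 lower over all genes. *Egr3*, a zinc finger factor needed for muscle spindles and for hippocampal memory, ran from 0.302 to 0.640 CPM in the cerebellum and from 106 to 151 in the hippocampus, with medians of 0.481 and 124 CPM, a log2 difference of 8.11 (standard error 0.105, adjusted p = 2.89e-15, edgeR). The groups were far apart, and in cerebellar controls *Egr3* rested on 8 to 20 counts per library. *Fosb*, *Junb* and *Arc* were higher in the hippocampus by 2.97, 2.75 and 2.67 on the log2 scale, *Egr1* by 1.48, *Nr4a1* by 1.25, *Npas4* by 1.13 and *Bdnf* by 0.87 (adjusted p between 9.77e-10 and 0.00407, edgeR). *Fos* went the other way. It ran from 13.6 to 44.7 CPM in the cerebellum (median 28.9) and from 7.98 to 18.4 CPM in the hippocampus (median 10.3), and fell by 1.18 on the log2 scale from the cerebellum to the hippocampus (standard error 0.310, adjusted p = 0.00383, edgeR). Its ranges overlapped in CPM, unlike those of *Egr3*. *Egr2*, which marks hindbrain segments in the embryo and is induced by activity in the adult, did not pass the filter on low values in this comparison, with 0 to 6 counts in cerebellar and 22 to 213 in hippocampal controls.

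Whether *Pogz* dosage moves these genes was asked first of the cerebellum. *Fos* and *Fosb*, which encode dimer partners of JUN proteins in the AP-1 factor, were higher in cKO-/- than in control cerebella. The other 6 tested members did not pass the test. In cKO+/- against control mice neither gene rose, with *Fos* at -0.14 (adjusted p = 0.930, edgeR) and *Fosb* at -0.02 (adjusted p = 0.990, edgeR) on the log2 scale. The slopes per allele given below thus rest on the cKO-/- group. In a fit on the number of alleles lost, with sex as a covariate, 2 of 8 tested members passed an FDR of 0.05, both upward, where 13.7% of all 14027 genes passed. *Egr2* (at most 9 counts in a library) and *Egr3* were below the filter of 1 CPM in 6 libraries. The median log2 change per allele was 0.19 over the 8 members and 0.00087 over all genes.

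*Fos* had a lowest, median and highest level of 13.6, 28.9 and 44.7 CPM in controls, 6.44, 21.7 and 72.3 in cKO+/- and 39.5, 83.1 and 126 in cKO-/- mice. Of the cKO-/- animals, Sample_1219, Sample_1371 and Sample_1379 stood at 109, 118 and 126 CPM and Sample_1160 at 57.5, above every control, while Sample_936 and Sample_1385 at 39.7 and 39.5 lay inside the control range. The cKO+/- group was mostly at or below the control levels, apart from animal Sample_938 at 72.3. Per allele lost *Fos* was higher by 0.74 on the log2 scale (1.68-fold, standard error 0.233, adjusted p = 0.0400, edgeR), and in cKO-/- against control mice by 1.48 (2.80-fold, standard error 0.464, adjusted p = 0.0430, edgeR).

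*Fosb* ran parallel to it at a lower level, with 0.640, 1.22 and 3.07 CPM in controls, 0.512, 0.963 and 4.86 in cKO+/- and 1.76, 4.70 and 7.38 in cKO-/- mice. Again 4 of 6 cKO-/- libraries exceeded every control, the same animals as for *Fos*, and animal Sample_938 was the highest of the cKO+/- group. The change per allele was 0.82 on the log2 scale (1.76-fold, standard error 0.250, adjusted p = 0.0367, edgeR), and cKO-/- mice were 1.60 above controls (3.02-fold, standard error 0.4998, adjusted p = 0.0432, edgeR). With genotype as a factor, these were the 2 members called between cKO-/- and control mice, where 12.7% of all genes were. No member separated the 6 cKO-/- libraries from the 6 controls, as 4.58% of all genes did.

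Both calls depended on the animals in the fit. All 6 controls carry numbers between Sample_1120 and Sample_1219, whereas 3 cKO+/- animals (Sample_933, Sample_938 and Sample_1433) and 4 cKO-/- animals (Sample_936, Sample_1371, Sample_1379 and Sample_1385) lie outside this run of numbers, and the labels do not say what the numbers mark. With a covariate for these animals no member passed, with *Fos* at 0.65 (adjusted p = 0.262, edgeR) and *Fosb* at 0.73 (adjusted p = 0.242, edgeR) per allele, while 308 of all genes did. Within the run, the cKO-/- animals Sample_1160 and Sample_1219 at 57.5 and 109 CPM of *Fos* lay above the controls, and the cKO+/- animals Sample_1120, Sample_1176 and Sample_1189 at 13.1, 20.4 and 6.44 CPM did not. The direction was kept in all alternatives tried (0.63 to 0.85 per allele for *Fos*, 0.71 to 0.98 for *Fosb*), but without Sample_1170, Sample_1172, Sample_1190, Sample_1192, Sample_1219, Sample_1371 or Sample_1379 neither gene passed in the fit per allele (adjusted p between 0.0502 and 0.0941, edgeR), and *Fos* also missed the threshold without Sample_1385 (adjusted p = 0.0508, edgeR). Between cKO-/- and control mice neither passed without these 7 or without Sample_933 (adjusted p between 0.0517 and 0.102, edgeR), and *Fos* also missed it without Sample_1129 or Sample_1176.

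**Figure D2:**
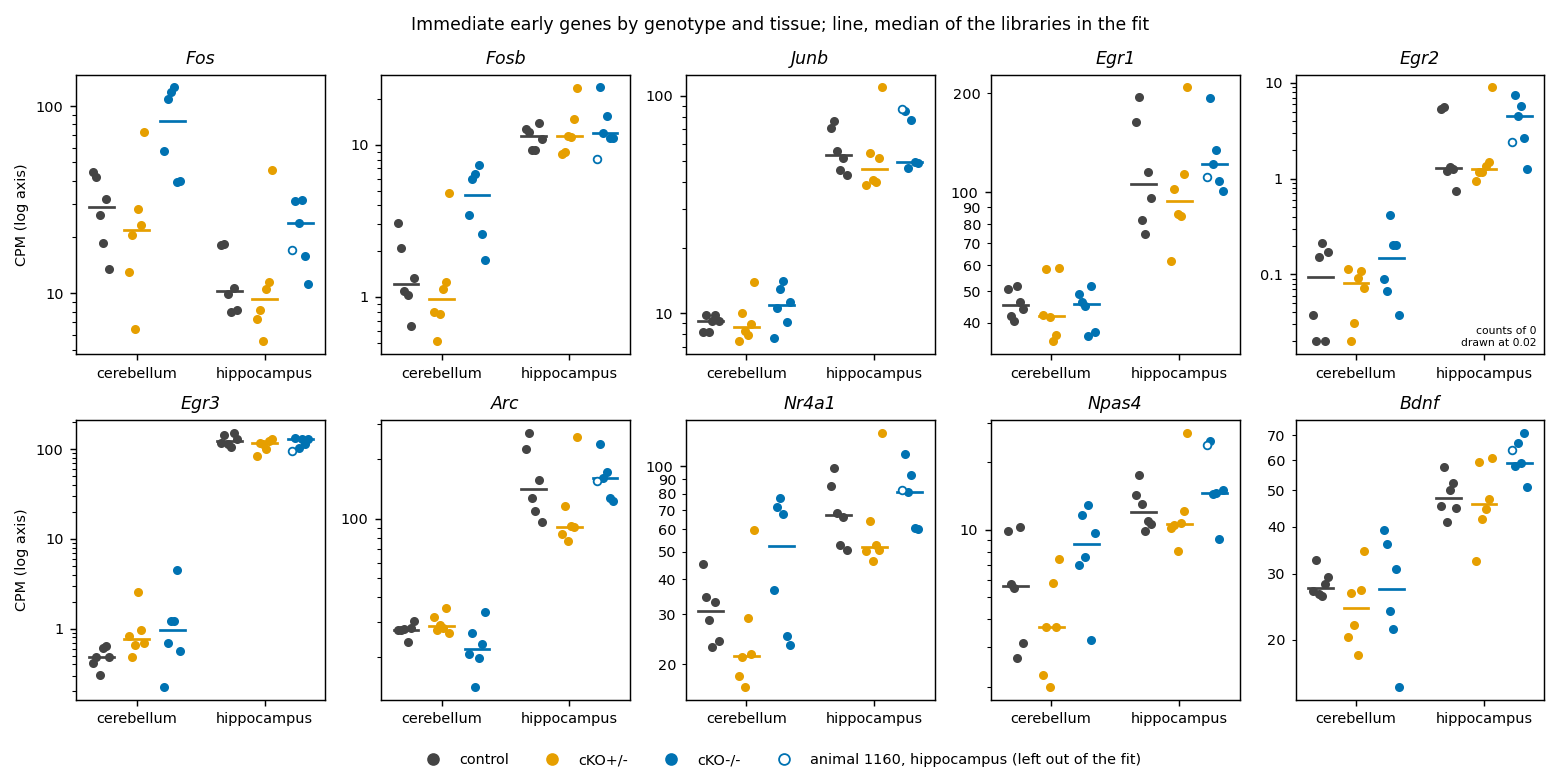
CPM of each gene on a log axis in the 3 genotypes of each tissue, with a point per library and a line at the median. In the cerebellum cKO-/- points of *Fos* and *Fosb* reach 126 and 7.38 CPM, above the highest controls at 44.7 and 3.07, whereas *Arc* and *Egr1* overlap throughout.

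*Nr4a1*, an orphan nuclear receptor induced by calcium and cAMP signals, had 23.0, 30.9 and 45.4 CPM in controls (lowest, median, highest), 16.6, 21.5 and 59.5 in cKO+/- and 23.5, 52.3 and 77.1 in cKO-/- mice. The 3 highest cKO-/- libraries were again Sample_1219, Sample_1371 and Sample_1379, but the others lay within the control range, and the change of 0.34 per allele (standard error 0.170) had an adjusted p of 0.184 (edgeR). *Npas4*, a neuron-restricted factor that answers to calcium alone, stood at 2.69, 5.63 and 10.3 CPM in controls and 3.23, 8.63 and 12.95 in cKO-/- mice (0.24 per allele, adjusted p = 0.434, edgeR). *Junb*, another AP-1 subunit, ran from 8.19 to 9.82 CPM in controls, from 7.44 to 13.9 in cKO+/- and from 7.68 to 14.01 in cKO-/- mice. Of the cKO-/- libraries 4 of 6 lay above every control, and Sample_1160 lay below every control (0.13 per allele, adjusted p = 0.243, edgeR).

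*Egr1*, *Arc* and *Bdnf* showed the smallest estimates. *Egr1* had medians of 45.3, 42.0 and 45.7 CPM in control, cKO+/- and cKO-/- mice (-0.03 per allele, adjusted p = 0.789, edgeR). *Arc* had medians of 27.5, 28.6 and 22.1 CPM (-0.13 per allele, adjusted p = 0.281, edgeR), with animal Sample_1371 lowest at 14.1 CPM, although the same animal had 118 CPM of *Fos*. *Bdnf* had medians of 27.5, 24.3 and 27.3 CPM (-0.02 per allele, adjusted p = 0.908, edgeR), and its spread was 9.27 CPM (SD, n = 6) in cKO-/- against 2.46 (SD, n = 6) in control mice, which was not tested.

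In cKO+/- mice, with 1 intact allele, no tested member was called against controls. In the cerebellum 0 of 8 passed, with 0 at an unadjusted p under 0.05 and 0 by DESeq2, where edgeR called 0.342% of all genes. In the hippocampus 0 of 10 passed, again with 0 at an unadjusted p under 0.05 and 0 by DESeq2, where edgeR called 0.0349% of all genes.

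In the hippocampus no member was called per allele lost by edgeR, with 1 of 10 at an unadjusted p under 0.05 (*Bdnf*) and 0 by DESeq2, while 4.44% of the 14339 genes passed. Between cKO-/- and control mice the count was likewise 0 of 10, with *Bdnf* at an unadjusted p under 0.05 and 0 by DESeq2, against 4.87% of all genes. *Bdnf*, the neurotrophin that binds TrkB, had 41.1, 47.7 and 57.6 CPM in controls (lowest, median, highest), 32.3, 46.0 and 60.7 in cKO+/- mice and 50.9, 58.1, 59.0, 66.6 and 70.9 in the 5 cKO-/- libraries, of which 4 lay above every control. The estimate was 0.16 per allele (standard error 0.0708, adjusted p = 0.218, edgeR) and 0.33 for cKO-/- against control mice (standard error 0.137, adjusted p = 0.174, edgeR). *Fos* had 7.98, 10.3 and 18.4 CPM in controls, 5.56, 9.33 and 45.3 in cKO+/- mice, and 11.3, 15.8, 23.8, 31.0 and 31.7 in cKO-/- mice. Of the cKO-/- libraries, 3 exceeded every control, and the estimate of 0.45 per allele had a standard error of 0.219 (adjusted p = 0.254, edgeR).

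The other hippocampal members overlapped throughout between genotypes. *Egr2* had a median of 1.29 CPM in controls and 4.48 in cKO-/- mice, but the control animals Sample_1129 and Sample_1155 stood at 5.35 and 5.54 CPM (0.38 per allele, adjusted p = 0.522, edgeR). *Arc* ran from 96.0 to 271 CPM in controls, from 77.2 to 258 in cKO+/- and from 122 to 239 in cKO-/- mice, with an estimate of -0.01 per allele (adjusted p = 0.986, edgeR). *Egr1*, *Egr3*, *Junb*, *Nr4a1*, *Npas4* and *Fosb* had estimates between -0.04 and 0.18 (adjusted p between 0.422 and 0.870, edgeR). No member separated the 5 cKO-/- libraries from the controls, as 3.65% of all genes did. 

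**Figure D3:**
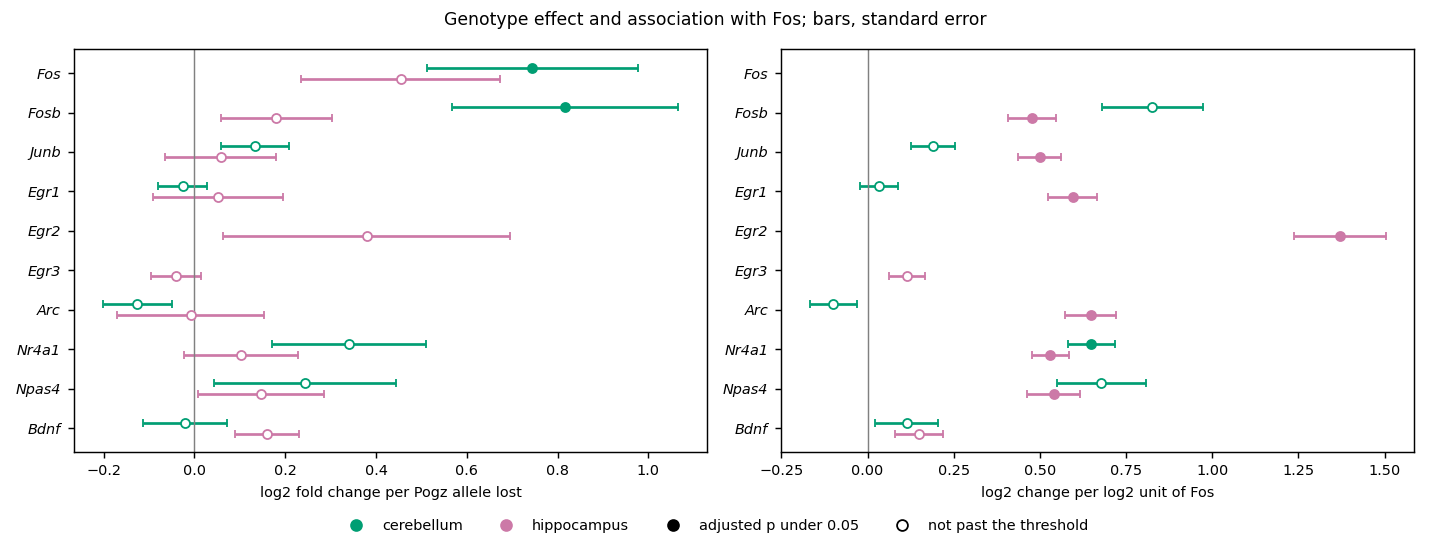
Left, log2 fold change per *Pogz* allele lost, and right, log2 change per log2 unit of *Fos* across libraries, with bars for the standard error and filled points where the adjusted p was under 0.05. *Fos* and *Fosb* in the cerebellum are the filled points on the left, and on the right 7 hippocampal genes and *Nr4a1* in the cerebellum are filled.

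The difference between the tissues in the allele effect was tested over 13587 genes, of which 1.49% passed. None of the 8 members tested in both tissues passed (edgeR), with 1 at an unadjusted p under 0.05 (*Fosb*, -0.66 per allele in the hippocampus relative to the cerebellum, adjusted p = 0.298, edgeR) and 0 by DESeq2. The allele effect of *Fos* was therefore called in the cerebellum and not in the hippocampus, but the effects were not shown to differ (-0.30, standard error 0.341, adjusted p = 0.770, edgeR). This fit took the libraries of an animal as separate, so its standard errors leave out the pairing of the tissues. With the animal as a block 0 members were called as well. Sex was fitted in the same models. In the cerebellum 0 of 8 members differed between males and females by edgeR, with 1 at an unadjusted p under 0.05 (*Egr1*) and 0 by DESeq2, where 0.0499% of genes did. In the hippocampus 0 of 10 did by edgeR, with 0 at an unadjusted p under 0.05 and 0 by DESeq2, where 0.907% of genes did.

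Within a genotype, most members of the hippocampal set varied together from animal to animal. Each library's log2 CPM was expressed as its deviation from the mean of its genotype. In the hippocampus the 45 pairs of members had a median Pearson r of 0.79 and a median Spearman rho of 0.65 over 17 libraries, against a median r of -0.0026 over all pairs of 14339 genes, and all 45 were positive. The lowest was 0.28, between *Npas4* and *Bdnf*, and the highest 0.97, between *Arc* and *Nr4a1*. *Egr1*, *Arc*, *Junb* and *Nr4a1* followed the mean of the other members with r of 0.96, 0.94, 0.94 and 0.94, and *Egr3* and *Bdnf* with r of 0.55 and 0.52. In the cerebellum the 28 pairs of 8 members had a median r of 0.24 and a median rho of 0.13 over 18 libraries, and 20 were positive, while 27.6% of all pairs of genes lay above that median r. There *Fos*, *Nr4a1* and *Fosb* went together, with r of 0.91 between *Fos* and *Nr4a1* (rho 0.93), 0.85 between *Fosb* and *Nr4a1* (rho 0.81) and 0.76 between *Fos* and *Fosb* (rho 0.78). *Arc* did not go with them, with r from -0.50 (*Nr4a1*) to 0.01 (*Npas4*) over the other members. Its r of -0.37 with *Fos* had a permutation p of 0.127, and its rho with *Bdnf* was 0.06, so an opposite direction was not shown. These values describe libraries that share their animals, depth and scaling.

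Animal Sample_938, a cKO+/- female, was the highest of its genotype for all 10 members in hippocampal and 7 of 8 in cerebellar libraries, with a mean deviation of 1.16 and 0.93 on the log2 scale. Without it, the median r between members was 0.63 among hippocampal and 0.091 among cerebellar libraries, with a median rho of 0.65 and -0.023. Then 4.21% of all pairs of genes lay above the members' median in the hippocampus and 40.9% in the cerebellum, where 15 of 28 pairs were positive. The difference between the tissues was not tested. The controls Sample_1129 and Sample_1155 (mean deviations 0.41 and 0.59 among hippocampal libraries, 0.40 and 0.21 among cerebellar ones) and the cKO-/- animal Sample_1219 (0.54 and 0.39) were also high in both tissues. Animal Sample_1120 was low in both, at -0.49 and -0.36. The median deviation of all genes stayed between -0.012 and 0.017 in every library.

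**Figure D4:**
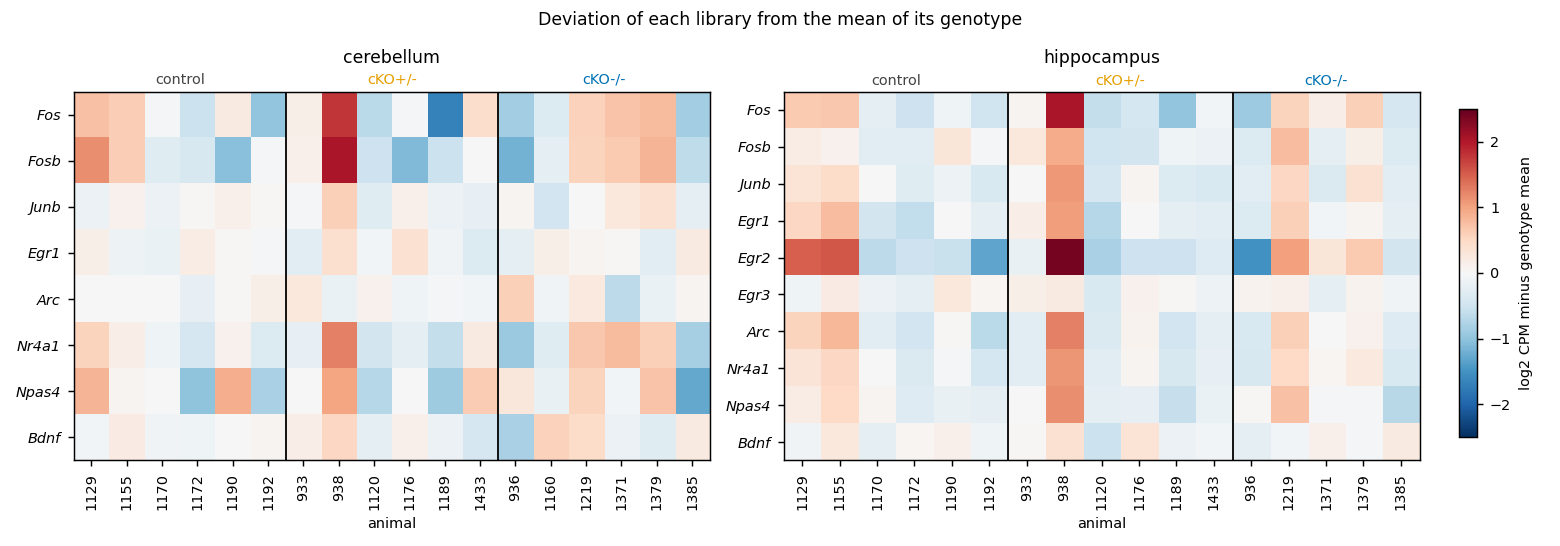
Deviation of log2 CPM from the genotype mean for each member (rows) and animal (columns), in the cerebellum with 18 libraries and in the hippocampus with 17. The column of animal Sample_938 is red for all 10 hippocampal genes and for 7 of 8 cerebellar ones.

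To test this across all genes, the log2 CPM of *Fos* was entered beside genotype and sex. In the hippocampus 14 of 14338 genes (0.0976%) were associated with *Fos*, and 7 of the 9 other members were among them. A unit of log2 *Fos* went with 1.37 units of *Egr2* (standard error 0.133, adjusted p = 0.000169, edgeR), 0.65 of *Arc*, 0.60 of *Egr1*, 0.54 of *Npas4*, 0.53 of *Nr4a1*, 0.50 of *Junb* and 0.48 of *Fosb* (adjusted p between 0.000169 and 0.00723, edgeR). *Egr3* at 0.11 and *Bdnf* at 0.15 did not pass (adjusted p = 0.9997 for both, edgeR). The other 7 genes were *Cyr61*, *Dusp6*, *Phf13*, *Sik1*, *Dusp1*, *Gadd45b* and *Nr4a3*, of which *Dusp1* and *Dusp6* encode phosphatases of MAP kinases and *Nr4a3* a relative of NR4A1. These calls depended on animal Sample_938. Without it the slopes stayed between 0.41 (*Fosb*) and 0.69 (*Arc*) for 6 of these members, but *Egr2* was the only gene called, and the other 6 had adjusted p between 0.124 and 0.535 (edgeR).

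In single correlations with hippocampal *Fos*, r was 0.93 for *Nr4a1* (rho 0.87, permutation p within genotypes of 6e-05 for each) and 0.93 for *Egr2* (rho 0.89, permutation p = 1e-05, the smallest that 100000 permutations give, and 2e-05). Without the animals farthest from the median of *Fos*, Sample_938 and Sample_1189, r was 0.86 and 0.94. For *Bdnf* r was 0.50 (permutation p = 0.115; rho 0.52, permutation p = 0.0482) and 0.25 without these animals, so that this relation rested on them. Of 9 correlations computed in this tissue, these p-values are unadjusted, and the edgeR values above are those adjusted over all genes.

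In the cerebellum only *Nr4a1* was associated with *Fos*, and it was the only gene of 14026 called (0.00713%), with 0.65 units per unit of log2 *Fos* (standard error 0.0684, adjusted p = 0.000401, edgeR). It was called in every alternative. *Fosb* at 0.83 (adjusted p = 0.103, edgeR) and *Npas4* at 0.68 (adjusted p = 0.158, edgeR) did not pass, and *Arc* was at -0.10 (adjusted p = 0.9998, edgeR). By r, *Nr4a1* stood at 0.91 (rho 0.93, permutation p = 1e-05 for each, the smallest possible) and at 0.93 without Sample_938 and Sample_1189, and *Npas4* at 0.79 (rho 0.78, permutation p = 0.00012 and 0.00064) and at 0.74 without them, among 7 such correlations.

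The genes outside the set that lay nearest to the mean of the members were read off in each tissue. They were picked as the highest in r of all tested genes, and how high such r would reach by chance was not tested. In the hippocampus they were *Dusp6*, *Mex3d*, *Nr4a3*, *Midn*, *Erf*, *Cry2*, *Zbtb21*, *Egr4*, *Ier2* and *Lmo2*, with r from 0.81 to 0.90 over 17 libraries. In the cerebellum they were *Nr4a3*, *Nr4a2*, *Fosl2*, *Dusp1*, *Trib1*, *Fastkd5*, *Tmem40*, *Cfb*, *Zbtb21* and *Midn*, with r from 0.70 to 0.75 over 18 libraries. *Nr4a3*, *Zbtb21* and *Midn* appeared in both tissues. Without animal Sample_938 most of these were replaced: *Dusp6* and *Cry2* remained in the hippocampus, beside *Zfp12*, *Prdm2*, *Cdk13*, *Smad1*, *Osbpl11*, *Yy1*, *Kdm2a* and *Lzts1*, and *Zbtb21* and *Nr4a2* in the cerebellum, beside *Gm3086*, *Hic2*, *Fgfr1op*, *Jmjd6*, *Ccnk*, *Sytl1*, *Zfp869* and *Gins3*. No gene was then common to both tissues.

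Levels of *Fos* went together between the tissues of an animal. Over 17 animals, the deviation from the genotype mean in the cerebellum correlated with that in the hippocampus with r of 0.92 (permutation within genotypes, p = 2e-05, adjusted p = 0.0340 over 13587 genes) and rho of 0.92 (permutation p = 3e-05), and with 0.91 without animals Sample_938 and Sample_1189. Of 8 members tested this was the call, where 0.0662% of genes passed. *Nr4a1* had r of 0.85 (permutation p = 0.00035, adjusted p = 0.0970; rho 0.84, permutation p = 0.00018), *Fosb* 0.70, *Npas4* 0.68, *Junb* 0.63 and *Bdnf* 0.61 (adjusted permutation p between 0.198 and 0.383). *Egr1* at 0.31 and *Arc* at -0.20 were lower (adjusted permutation p = 0.723 and 0.773). Without the farthest animals, r fell to 0.41 for *Fosb*, 0.093 for *Junb* and -0.084 for *Egr1*, so these relations rested on those animals, while *Nr4a1* was at 0.73, *Npas4* at 0.56 and *Bdnf* at 0.73. The median r was 0.65 over the 8 members and 0.15 over all genes. The call of *Fos* was lost without animal Sample_1371 (r of 0.93, adjusted permutation p = 0.0679), with all 18 animals and with deviations from the means of genotype and sex. A lone gene at the smallest p that the permutations give would have an adjusted p of 0.136, so that a call needs several genes at or near it. Those at or near it here included the sex-linked *Kdm5d*, *Uty* and *Kdm5c*, and the deviations were taken without sex. The adjusted p of *Fos* therefore rests in part on these genes.

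**Figure D5:**
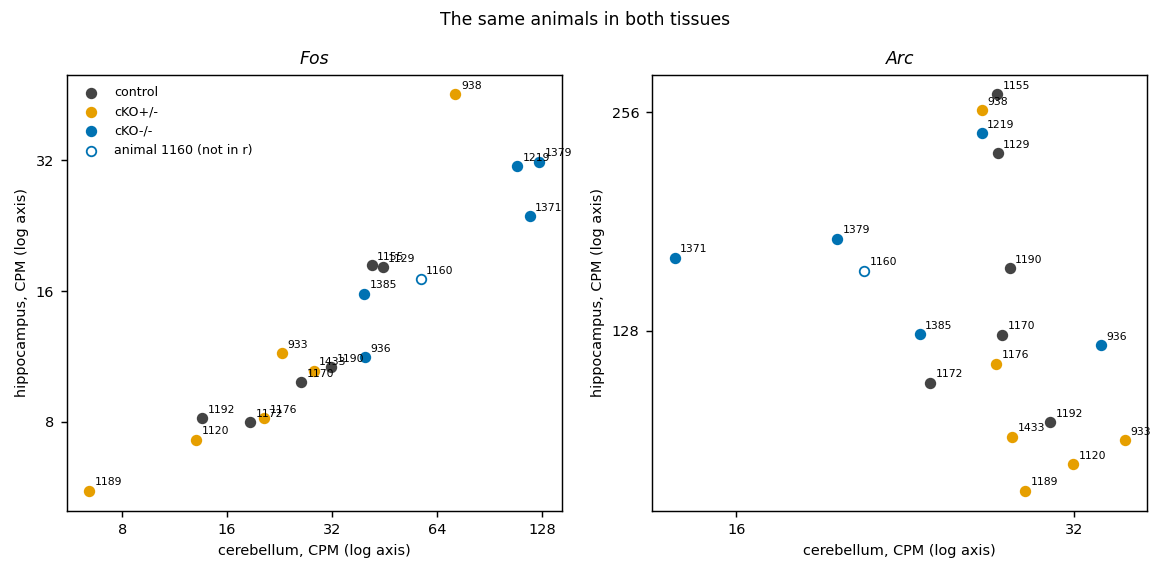
*Fos* (left) and *Arc* (right) in the cerebellum and the hippocampus of each animal, in CPM on log axes, labelled by animal number. The animals rank alike for *Fos*, from Sample_1189 at 6.44 and 5.56 CPM to Sample_938 and the cKO-/- animals Sample_1219 and Sample_1379, whereas for *Arc* the highest hippocampal animal, Sample_1155 at 271 CPM, has 27.3 CPM in the cerebellum.

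Other genes of the activity response were read from lists, whose counts per allele stand against 13.7% of all genes called in the cerebellum and 4.44% in the hippocampus. Of 21 further immediate early transcription factors tested in the cerebellum, 1 passed upward and 0 downward per allele (median 0.01), *Crem* at 0.16 (adjusted p = 0.0441, edgeR), which encodes the CRE-binding modulator. In the hippocampus *Crem* at 0.17 (adjusted p = 0.0114, edgeR) and *Klf6* at 0.18 (adjusted p = 0.0264, edgeR) rose, 2 of 21 (median 0.04). Of 36 further activity-regulated effectors in the cerebellum 6 rose and 1 fell (median 0.06), where 13.7% of all genes were called. Among them, *Plk2* rose by 0.14, *Rgs2*, a brake on G protein signals, by 0.26, and *Inhba*, the activin subunit, by 0.64, while *Amigo3* fell by 0.41 on the log2 scale (adjusted p between 0.00530 and 0.0229, edgeR). In the hippocampus *Scg2* rose by 0.26 and *Rgs4* by 0.20 (adjusted p = 0.000949 and 0.0336, edgeR), 2 of 37 (median 0.0037).

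Upstream regulators are the kinases, channels and factors that carry activity to these promoters. In the cerebellum 4 of 38 fell and 0 rose (median -0.03), where 13.7% of all genes were called in either direction. Among them were *Camkk1*, which fell by 0.23, *Crtc3*, a CREB coactivator, which fell by 0.15, and *Mkl2*, an SRF coactivator, which fell by 0.17 on the log2 scale (adjusted p between 0.00746 and 0.0220, edgeR). In the hippocampus 6 of 38 fell and 0 rose (median -0.05, with 4.44% of all genes called), led by *Rps6ka2* by 0.11, *Camkk1* by 0.18 and *Elk1* by 0.11 on the log2 scale (adjusted p between 0.0137 and 0.0187, edgeR). Of the BDNF pathway, *Cpe*, *Sorcs3* and *Ngfr* rose in the cerebellum by 0.20, 0.22 and 0.42 (3 of 11, 0 lower, median 0.14, with 13.7% of all genes called, adjusted p between 0.00498 and 0.0286, edgeR), and *Cpe* rose in the hippocampus by 0.10 (1 of 12, 0 lower, median -0.01, adjusted p = 0.0286, edgeR). Among partners of AP-1, EGR and ARC proteins, *Sh3gl3* rose by 0.37, and *Arnt* and *Sh3gl1* fell by 0.22 and 0.16 on the log2 scale in the cerebellum (1 and 2 of 16, median -0.05, with 13.7% of all genes called, adjusted p between 0.0227 and 0.0400, edgeR). *Sh3gl1* fell by 0.14 in the hippocampus (adjusted p = 0.00782, edgeR), the only call of 17 there (median -0.02). *Nr4a3*, *Cyr61*, *Dusp6*, *Sik1*, *Dusp1* and *Gadd45b* of these lists were associated with hippocampal *Fos*.

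Of 15 clock genes, 3 fell in the cerebellum (*Tef* by 0.21, *Per3* by 0.31 and *Ciart* by 0.31 on the log2 scale) and 6 in the hippocampus (led by *Bhlhe41* by 0.21, *Per3* by 0.38 and *Tef* by 0.14 on the log2 scale), and 0 rose, where 13.7% and 4.44% of all genes were called (medians -0.08 and -0.12, adjusted p of the named genes between 0.00587 and 0.0229, edgeR). None of the 15 was associated with *Fos* in either tissue by edgeR, with 2 at an unadjusted p under 0.05 in the cerebellum and 3 in the hippocampus. Of 7 heat shock genes 0 were called in the cerebellum by edgeR, with 2 at an unadjusted p under 0.05. In the hippocampus *Hsp90aa1* rose by 0.16, and *Hspa1a* and *Hspa1b* fell by 0.27 (adjusted p between 0.0229 and 0.0459, edgeR). These last are near-identical copies whose shared reads make their counts uncertain.

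Markers of other cells were read in the same fits. In the cerebellum, summed choroid plexus markers had a lowest, median and highest level of 21.5, 25.3 and 30.0 CPM in controls, with *Folr1* at 0, of 23.3, 24.3 and 3211 in cKO+/- and of 23.6, 45.8 and 3086 in cKO-/- mice, and 0 of 7 were called per allele by edgeR, with 2 at an unadjusted p under 0.05. There 3 of 7 microglial, 3 of 6 astrocyte and 1 of 6 oligodendrocyte markers were called higher and 0 lower, where 13.7% of all genes were called. Calls were not confined to glial lists. Of 6 cortical and striatal markers 2 were higher, of 4 midbrain and brainstem markers 1 was, and 0 of either were lower. Of 7 hippocampal neuron markers 2 were higher and 1 lower. Of 12 cerebellar neuron markers 0 were called by edgeR, with 2 at an unadjusted p under 0.05. Summed microglial markers ran from 125 to 133 CPM in controls and from 122 to 216 in cKO-/- mice, astrocyte markers from 2955 to 3580 and from 3247 to 4514, and oligodendrocyte markers from 3955 to 5861 and from 4258 to 9390. Against the deviations of cerebellar *Fos*, those of the choroid plexus sum had r of -0.00096, of the microglial sum 0.18, of the astrocyte sum 0.050 and of the oligodendrocyte sum -0.049 over 18 libraries, and total counts -0.20. In the hippocampus the corresponding values were -0.068, 0.46, 0.22, -0.073 and -0.24 over 17 libraries. Of 9 endothelial and mural markers 3 were called higher and 0 lower in the hippocampus, with summed levels from 135 to 162 CPM in controls and from 158 to 243 in cKO-/- mice and an r of 0.059 with *Fos*, and 4.44% of all genes were called. Of 12 hippocampal neuron markers 4 fell and 0 rose there, led by *Wfs1*, *C1ql2* and *Dsp*, which fell by 0.50, 0.45 and 0.56 on the log2 scale (adjusted p between 0.000875 and 0.0119, edgeR), with summed levels from 1091 to 1568 CPM in controls and from 988 to 1233 in cKO-/- mice. The part of these cells in the levels of the members was not tested.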

How the data were processed

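Poly(A) RNA of the cerebellum and the hippocampus was sequenced by the authors in 43 bp paired-end reads, which the authors aligned to mm9 and counted per gene with STAR (version 250a). The values deposited are whole-number counts, not normalized. Coordinates in the tables match GRCm38, and strand use, annotation release and the treatment of reads with several matches are not given in the sources used here. The deposited tables also give each gene's exon length, used for RPKM. The members and lists were chosen with earlier results of these data known. The fits were made with edgeR 4.0.16 (R 4.3.3; TMM factors, the legacy quasi-likelihood F-test, genes over 1 CPM in 6 or more libraries, Benjamini-Hochberg adjustment over all genes at an FDR of 0.05), with sex and alleles lost, or genotype as a factor. In the hippocampus the filter and TMM factors used all 18 libraries before animal Sample_1160 was left out. Associations with *Fos* added its log2 CPM (prior count 1). Correlations between tissues used 100000 permutations of animals within genotype. Animals in a genotype are separate mice.

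Named genes were the 10 members, *Pogz*, in each list and tissue up to 3 genes per direction with the smallest adjusted p among those called per allele, and the 10 genes nearest to the members' mean. The values of 1 gene of the marker lists are not reported here. Genes associated with *Fos* outside these were named after their values were seen. Alternatives were DESeq2 1.42.0, RLE size factors, no filter, the bias-adjusted fit, robust dispersions, no sex term, all 18 hippocampal libraries, a covariate for the animal number range, the animal as a block and each animal left out. The animal numbers in the labels pair the tissues. Deviations from the genotype means in the tissues of the same animal correlated with a median r of 0.26 (15 of 17 animals above 0.1), against -0.080 between different animals. On simulated counts the fits per allele recovered 199 of 200 changed genes of 14027 in the cerebellum and 197 of 200 of 14339 in the hippocampus. False calls numbered 13 in the cerebellum and 12 in the hippocampus. Recovery of effects of the size estimated for the members was not tested. Between 17609321 and 45544188 counts per library leave genes near 1 CPM on few counts.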

Additional observations from a re-analysis of the deposited data

Results flagged for a closer look

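Among 60 groups of member, tissue and genotype, 12 held a library far from the others of its group by Dixon's criterion, and animal Sample_938 was the library in 10 of them. The criterion flags about 1 of 20 groups where values are independent and normally spread. These groups are in CPM, share animals and hold members that vary together, so the count of 12 is not to be set against that rate. In the hippocampus of cKO+/- mice, animal Sample_938 had 45.3 CPM of *Fos* against at most 11.5 in the others, 109 of *Junb* against 54.4, 209 of *Egr1* against 114, and 9.01 of *Egr2* against 1.48. It also had 258 CPM of *Arc* against 115, 131 of *Nr4a1* against 64.0 and 27.1 of *Npas4* against 12.2. In the cerebellum the same animal had 72.3 CPM of *Fos* against 28.4, 4.86 of *Fosb* against 1.26 and 59.5 of *Nr4a1* against 29.1. The other 2 were cerebellar *Egr3*, a gene below the filter, at 2.57 CPM in the cKO+/- animal Sample_1433 against 0.972, and at 4.49 CPM in the cKO-/- animal Sample_1385 against 1.22.

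The hippocampal library of animal Sample_1160, which was left out of the hippocampal fits and entered only the alternatives with all 18 animals, lay above every control for 3 members, with 86.7 CPM of *Junb* against at most 76.7, 24.0 of *Npas4* against 17.6 and 64.0 of *Bdnf* against 57.6. It lay below every control for *Fosb*, with 8.08 CPM against at least 9.29, and for *Egr3*, with 94.5 against 106.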

How the results depend on the processing

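With the covariate for the animal number range, 0 members were called in the cerebellum per allele and 0 between cKO-/- and control mice. With each animal left out in turn these counts ran from 0 to 2 each. The cerebellar count associated with *Fos* was 2 with the bias-adjusted fit (adding *Fosb*) and 3 with DESeq2 (adding *Npas4* too), and 1 to 2 with an animal left out. The hippocampal count was 6 without a sex term and with all 18 libraries, and 1 to 7 with an animal left out. The correlation of *Fos* between tissues passed as reported, and 0 members did with deviations from means of genotype and sex (where only 15552 orders of the animals exist) or with all 18 animals. With an animal left out the count was 0 (without Sample_1371) to 1. No count without the farthest animals was made, since these differ by gene. With the animal as a replicate block, 9 members differed between tissues and 0 in the allele effect, so that the pairing changed no call (338 in place of 203 genes for the allele effect over all genes). Without the filter *Egr2* was called between the tissues too, 10 members in all. Of 22 called member effects 0 changed sign in any alternative and 11 lost the call in at least 1. Of 91 that were not called, 37 changed sign in at least 1, so the signs printed for such estimates are not to be read as directions. Over all genes, the counts per allele were 308 in place of 1916 in the cerebellum and 68 in place of 636 in the hippocampus with the number range as covariate, and in the hippocampus 246 with all 18 libraries and 1056 with DESeq2, with 0 members called in each. Depth limits cerebellar *Egr2* and *Egr3* most.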

Other observations

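Besides *Fos*, 8 genes passed the permutation test for a correlation between the tissues of an animal, and they are named after their values were seen. They include *Sgk1* (r of 0.90 over 17 animals, adjusted permutation p = 0.0272), *Per1* (0.85, adjusted permutation p = 0.0340) and *Plin4* (0.88, adjusted permutation p = 0.0453), which are induced by glucocorticoids in many tissues. *Kdm5d*, *Uty* and *Kdm5c* are sex-linked, and deviations were taken from genotype means without sex. *Acp1* and *Phka2* also passed, at 0.97 and 0.77 (adjusted permutation p = 0.0272 for each), and the part of sex in their correlations was not examined.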
